A study of Mus musculus with 6 samples.

Results

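The core loop of the circadian clock was described in retinal RNA of mice with oxygen-induced retinopathy (OIR) through 9 genes, Arntl, Clock, Npas2, Cry1, Cry2, Per1, Per2, Per3 and Rora. They were chosen by name for their role in the loop, with earlier results of these data known. They make up 9 of the 32285 genes in the deposited count table. All 6 libraries came from wild-type C57BL/6J pups kept at 75% O2 for 5 days from postnatal day (PN) 8 and returned to room air at PN13, a treatment that removes capillaries from the central retina, and retinas were taken at PN18. In the 3 OIR-CIH libraries the pups then also received chronic intermittent hypoxia (CIH), 10 h of each day with 266 cycles of 135 s in which O2 dropped from 20.95% to 5% and came back. In the 3 OIR-Norm libraries, the controls, the pups received the same gas flow at constant O2. The comparison asks what CIH adds to OIR, since no library came from a retina without OIR. CIH was given in the daytime, when mice sleep, and the hour at which each eye was taken is not given in the sources used here, so a difference in hour between the groups cannot be told apart from CIH in genes that cycle over the day.

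The clock runs in most cells, including those of the retina, as a loop of transcription and repression. ARNTL (also called BMAL1) pairs with CLOCK or NPAS2, binds E-box sequences and switches on the Per and Cry genes, whose proteins return to the nucleus and repress that pair. A second loop acts on Arntl itself, where RORA activates and the NR1D proteins repress through shared sites, while DBP, TEF, HLF and the repressor NFIL3 act on D-box sequences, for instance in the Per genes. In the retina this clock is known for daily rhythms of dopamine, melatonin and photoreceptor outer segment shedding.

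Of these 9 genes, 8 (all but Per2) had a start site window in the RefSeq promoter table (build GRCm38.p6), with 12 windows in all. The 250 bases before each start were searched on both strands for the E-box CACGTG, the D-box TTATGTAA and the ROR half-site AGGTCA, none of which overlapped another in the stretches shown. Of all 32851 windows in that table, 6.02% held the E-box, 0.819% the D-box and 14% the half-site. The following 4 stretches are shown because they hold the E-boxes and D-boxes found before the start of a core loop gene, and those of Ciart, which had the largest fold change in the list of clock-controlled genes below. They read 5′ to 3′ along the gene's strand, with the E-box or D-box in capitals.
Cry1, chr10:85185094-85185129, minus strand: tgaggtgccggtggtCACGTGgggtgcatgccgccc
Per1, chr11:69098768-69098803, plus strand: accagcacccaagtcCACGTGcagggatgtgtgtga
Per3, chr4:151044801-151044885, minus strand: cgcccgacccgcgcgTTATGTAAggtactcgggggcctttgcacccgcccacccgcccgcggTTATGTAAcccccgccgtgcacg
Ciart, chr3:95882252-95882359, minus strand: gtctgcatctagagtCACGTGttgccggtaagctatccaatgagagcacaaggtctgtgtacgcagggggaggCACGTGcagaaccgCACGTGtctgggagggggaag
The E-box of Cry1 began 60 bases before its start and that of Per1 166 bases before. The D-boxes of Per3 began 205 and 158 bases before its start, and the 3 E-boxes of Ciart 116, 58 and 44 bases before. Among the other clock-controlled genes, Tef and Bhlhe41 held an E-box before a start, while Usp2, Dbp, Hlf, Nfil3, Nr1d1 and Nr1d2 held none. Bhlhe40 had no window and was not searched. A half-site lay before 1 of the starts of Per1 and 1 of the starts of Clock. The windows of Arntl, Npas2, Cry2 and Rora held none of these letters before the start. Only exact matches in these 250 bases were sought, so a gene without a match may still hold variant or more distant sites. A match is a description of the letters and not a measure of binding, which was not assayed.

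Total counts per library were between 26289905 and 38010151 and overlapped between the groups. All 6 libraries held both Xist and Y-linked RNA above 1 CPM (a count scaled to a common library size after trimmed mean of M-values normalization), which RNA of 1 animal would not give, although 3 eyes per group are stated, which would be 1 eye per library. Which of these holds is not settled by the sources used here, so n is the number of libraries. Markers of retinal cells were present throughout, with no marker of the 10 cell type lists at 0 in any library. In bulk retina, fewer cells of a type and less RNA per cell cannot be told apart. Each gene was compared with edgeR's quasi-likelihood test over the 20021 genes that reached 10 counts in total, with Benjamini-Hochberg adjustment over all of them. Across those genes, 63 (0.315%) had both an adjusted p under 0.05 and a fold change of more than 0.5 on the log2 scale, 20 of them higher and 43 lower in OIR-CIH. Without the limit on fold change, 78 genes (0.39%) had an adjusted p under 0.05.

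All 9 core loop genes were measured well enough to be tested, and 0 of 9 passed the adjusted threshold, with or without the limit on fold change. Their adjusted p in the edgeR fit were between 0.299 and 0.898. An unadjusted p under 0.05 was found for 3 of 9, Per1 on the higher side and Clock and Per2 on the lower side, against 13.2% of all genes tested, and in the same 3 the libraries of the groups did not overlap, against 18.4% of all genes. DESeq2 and limma also passed 0 members and each gave 3 of 9 an unadjusted p under 0.05. Fold changes leaned up for 6 genes and down for 3, with a median log2 fold change of 0.04 and a median absolute value of 0.13, beside -0.003 and 0.15 over all genes tested.

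How large a change these libraries could have hidden differed by gene. The 95% confidence interval of the log2 fold change lay within 0.5 of 0 for 7 of 9 genes, so that a difference of that size lies outside it. The exceptions were Per2, at -0.55 to -0.06, and Npas2, at -0.35 to 0.59. The standard error was 0.07 to 0.11 on the log2 scale for 8 genes and 0.22 for Npas2, which had 65 to 163 counts per library against at least 435 for every other member and up to 13877 for Rora.

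**Figure D1:**
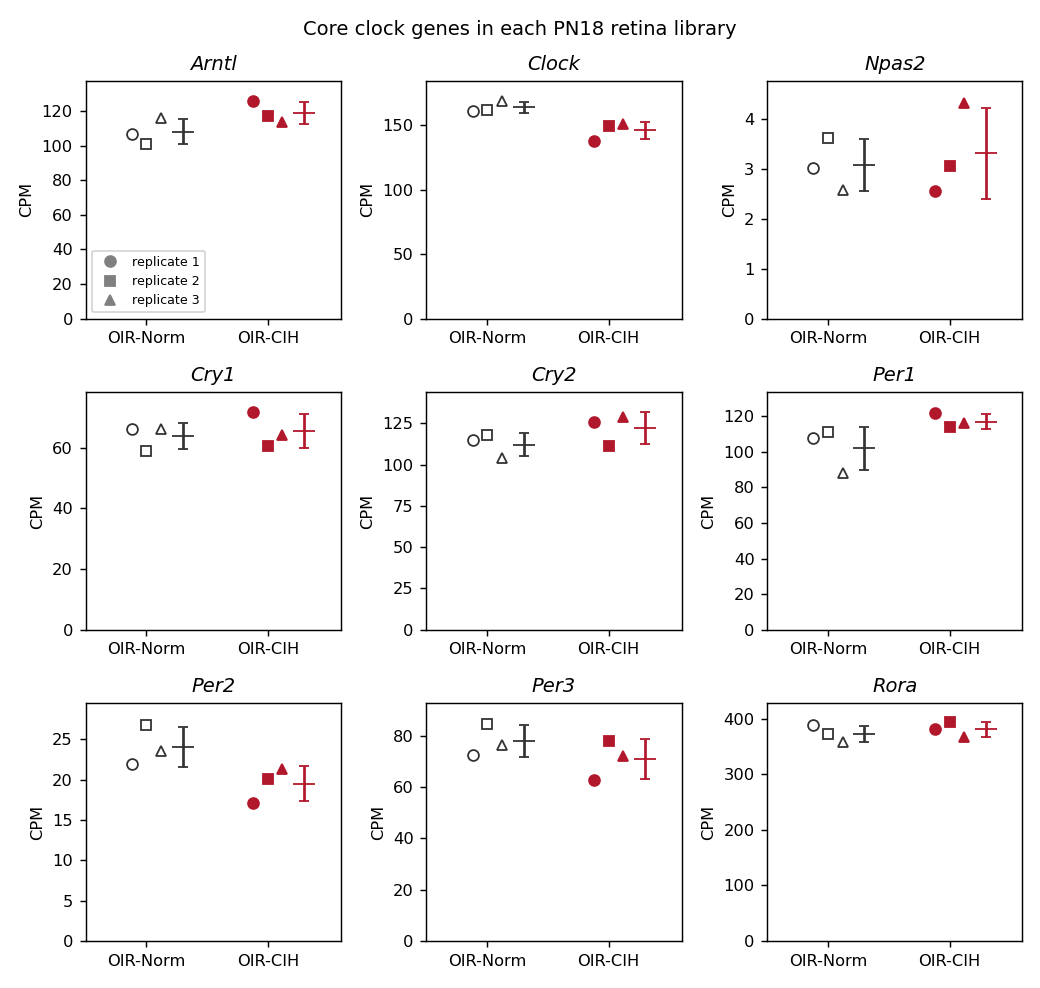
CPM of each core clock gene in the 3 OIR-Norm (open) and 3 OIR-CIH (filled) libraries, with marker shape for the replicate number and, to the right of each group, the mean and SD. Each panel starts at 0 and has its own scale. The groups are apart for Clock, Per1 and Per2 and overlap for the other 6 genes.

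The activators of the loop are described first. Arntl, the partner without which the loop stops in mice, was at 126, 117 and 114 CPM in the OIR-CIH libraries and at 107, 101 and 116 CPM in the OIR-Norm libraries. OIR-Norm replicate 3 lay above OIR-CIH replicate 3, so the groups overlapped. The means were 119 ± 6.41 and 108 ± 7.25 CPM (SD, n = 3 each), a log2 fold change of 0.14 (SE 0.08, edgeR adjusted p = 0.456) with a 95% confidence interval of 0.984- to 1.24-fold.

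Clock, its partner, was at 138, 149 and 151 CPM in OIR-CIH and at 161, 162 and 169 CPM in OIR-Norm. All 3 OIR-CIH libraries lay below all 3 OIR-Norm libraries. The means were 146 ± 6.62 and 164 ± 4.27 CPM (SD, n = 3 each), a log2 fold change of -0.17 with a 95% confidence interval of 0.801- to 0.99-fold. The edgeR p was 0.0349, with an SE of 0.07 on the log2 scale, and the adjusted p was 0.347.

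Npas2, which can stand in for CLOCK and is used most in the forebrain, was the scarcest member. It was at 2.55, 3.05 and 4.31 CPM in OIR-CIH and at 3.02, 3.61 and 2.58 CPM in OIR-Norm, and the OIR-CIH libraries held both its lowest and its highest value. The log2 fold change was 0.12 (SE 0.22, edgeR adjusted p = 0.849), and it became -0.13 without OIR-CIH replicate 3. Npas2 stood at 0.0225 ± 0.00537 of the Clock CPM in OIR-CIH and at 0.0188 ± 0.00354 in OIR-Norm (SD, n = 3 each), with overlapping groups.

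The period genes, the repressors whose transcription E-boxes drive, did not lean the same way. Per1, which light and stress signals also induce within hours, was at 122, 114 and 116 CPM in OIR-CIH and at 108, 111 and 88.2 CPM in OIR-Norm. All 3 OIR-CIH libraries lay above the OIR-Norm libraries, of which replicate 3 was the lowest by far. The means were 117 ± 4.33 and 102 ± 12.1 CPM (SD, n = 3 each), a log2 fold change of 0.20 (SE 0.09). The edgeR p was 0.0424 and the adjusted p 0.363. Without OIR-Norm replicate 3 the log2 fold change was 0.10.

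Per2, a period gene whose mutation disrupts behavioural rhythms, had the lowest p of the 9. It was at 17.1, 20.1 and 21.3 CPM in OIR-CIH and at 21.9, 26.8 and 23.5 CPM in OIR-Norm. The highest OIR-CIH library was just under the lowest OIR-Norm library. The means were 19.5 ± 2.16 and 24.1 ± 2.48 CPM (SD, n = 3 each), a log2 fold change of -0.30 (SE 0.11) and a fold of 0.811. The edgeR p was 0.0188 and the adjusted p 0.299. By p it ranked 1255 of the 20021 genes tested.

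Per3, a period protein that the loop can do without, was at 62.9, 78.2 and 72.0 CPM in OIR-CIH and at 72.5, 84.8 and 76.4 CPM in OIR-Norm. OIR-CIH replicate 2 lay above 2 of the 3 OIR-Norm libraries. The log2 fold change was -0.13 (SE 0.09, edgeR adjusted p = 0.563), and it lay between -0.21 (without OIR-CIH replicate 2) and -0.06 (without OIR-CIH replicate 1) when a library was left out, with -0.07 without OIR-Norm replicate 2. Its pair of D-boxes, shown above, was not found in the searched stretches of the other 7 core loop genes with a window.

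The cryptochromes, the stronger repressors of the ARNTL and CLOCK pair, were read next. Cry1 was at 71.9, 60.7 and 64.2 CPM in OIR-CIH and at 66.3, 58.8 and 66.3 CPM in OIR-Norm, with groups that overlapped throughout. Its log2 fold change was 0.04 (SE 0.08, edgeR adjusted p = 0.878), and the sign turned when OIR-CIH replicate 1 (-0.03) or OIR-Norm replicate 2 (-0.02) was left out.

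Cry2 was at 126, 111 and 129 CPM in OIR-CIH and at 115, 118 and 104 CPM in OIR-Norm. OIR-CIH replicate 2 lay below 2 OIR-Norm libraries. The log2 fold change was 0.12 (SE 0.08, edgeR adjusted p = 0.548), with an interval of 0.965- to 1.23-fold. Leaving out OIR-Norm replicate 3 gave 0.07, leaving out replicate 3 of OIR-CIH gave 0.08, and leaving out its replicate 2 gave 0.19.

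Rora, the nuclear receptor that activates Arntl and is also expressed in developing cones and inner retinal neurons, had the highest count of the 9 genes. It was at 382, 394 and 367 CPM in OIR-CIH and at 388, 372 and 359 CPM in OIR-Norm, and the groups overlapped. The log2 fold change was 0.03 (SE 0.08, edgeR adjusted p = 0.898), and a change beyond 0.908- to 1.15-fold lies outside its interval. Annotated genes overlap Rora, Arntl and Cry2 on the opposite strand. They held 30, 29 and 212 counts in all over the 6 libraries, less than any single library held for these members.

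**Figure D2:**
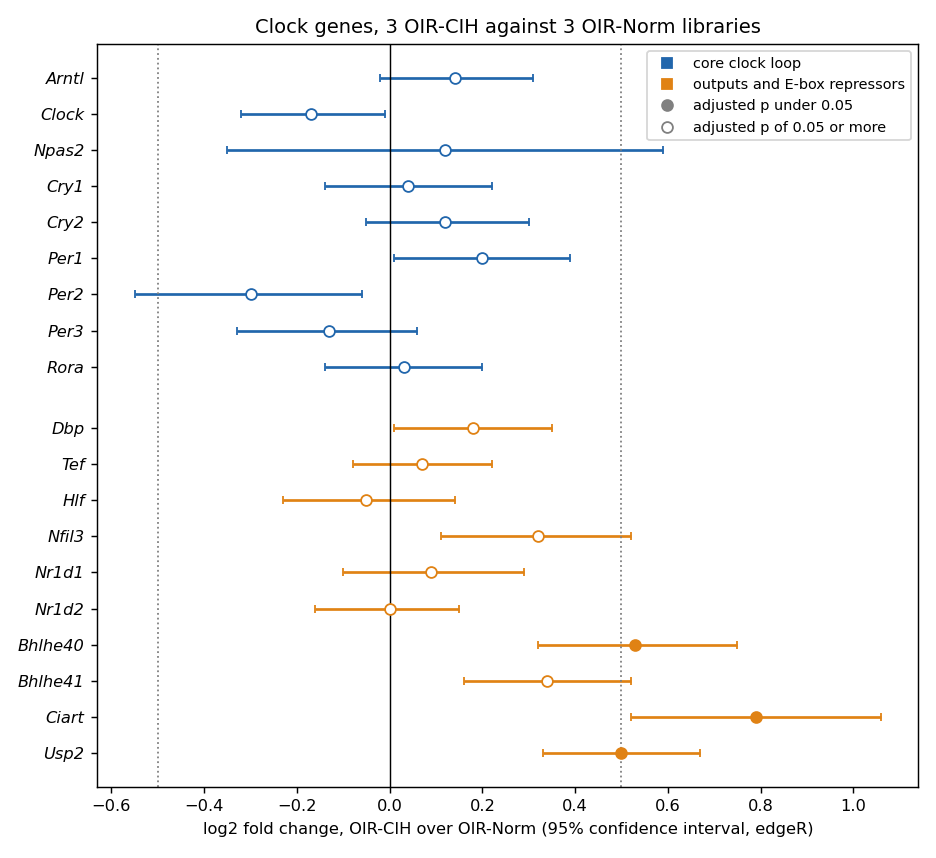
Log2 fold change of OIR-CIH over OIR-Norm with its 95% confidence interval from edgeR, for the 9 core clock genes and 10 clock outputs and E-box repressors. Filled points have an adjusted p under 0.05, and dotted lines mark 0.5 in either direction. No core gene is filled, while Ciart (0.79), Bhlhe40 (0.53) and Usp2 (0.50) are.

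Per kilobase of annotated exon, the order of levels over the 6 libraries was headed by Rora with a mean of 28.8 CPM per kb. Per1 (19.5), Cry1 (19.4), Cry2 (18.6) and Arntl (15.1 CPM per kb) followed, and neighbours among these 4 had overlapping ranges. Clock (11.3), Per3 (7.75), Per2 (3.72) and Npas2 (0.665 CPM per kb) came next, each with a range apart from that of its neighbours. The exon length is the union over all annotated transcripts, which understates the level of a gene that uses short ones.

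Ratios between members within a library do not depend on its scaling, and those given here were chosen after the values had been seen, so they carry no test. Per1 was 7.15, 5.66 and 5.44 times the CPM of Per2 in OIR-CIH and 4.91, 4.13 and 3.75 times in OIR-Norm. The groups did not overlap, with means of 6.09 ± 0.926 and 4.27 ± 0.589 (SD, n = 3 each). Arntl was at 0.913, 0.786 and 0.758 of the Clock CPM in OIR-CIH and at 0.665, 0.626 and 0.685 in OIR-Norm, again without overlap. The ratios of Per1 to Per3, Cry1 to Cry2, Npas2 to Clock and Arntl to Rora overlapped between the groups.

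The libraries of one group also differed among themselves. OIR-CIH replicate 1 had the highest value of all 6 libraries for Arntl, Cry1 and Per1 and the lowest for Clock, Npas2, Per2 and Per3, so that it was an extreme for 7 of 9 members, while it was an extreme for 37.5% of all genes tested. OIR-Norm replicate 2 was an extreme for 4 members, highest for Per2 and Per3 and lowest for Arntl and Cry1, and for 43.9% of all genes. This library also held 462 CPM summed over 5 lens markers, against 12.1 to 77.7 CPM in the other libraries, and the part of lens RNA in these values was not tested. Without OIR-CIH replicate 1, the log2 fold change of Per2 was -0.22, that of Clock -0.13 and that of Per3 -0.06, and 0 of 9 members had an unadjusted p under 0.05.

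**Figure D3:**
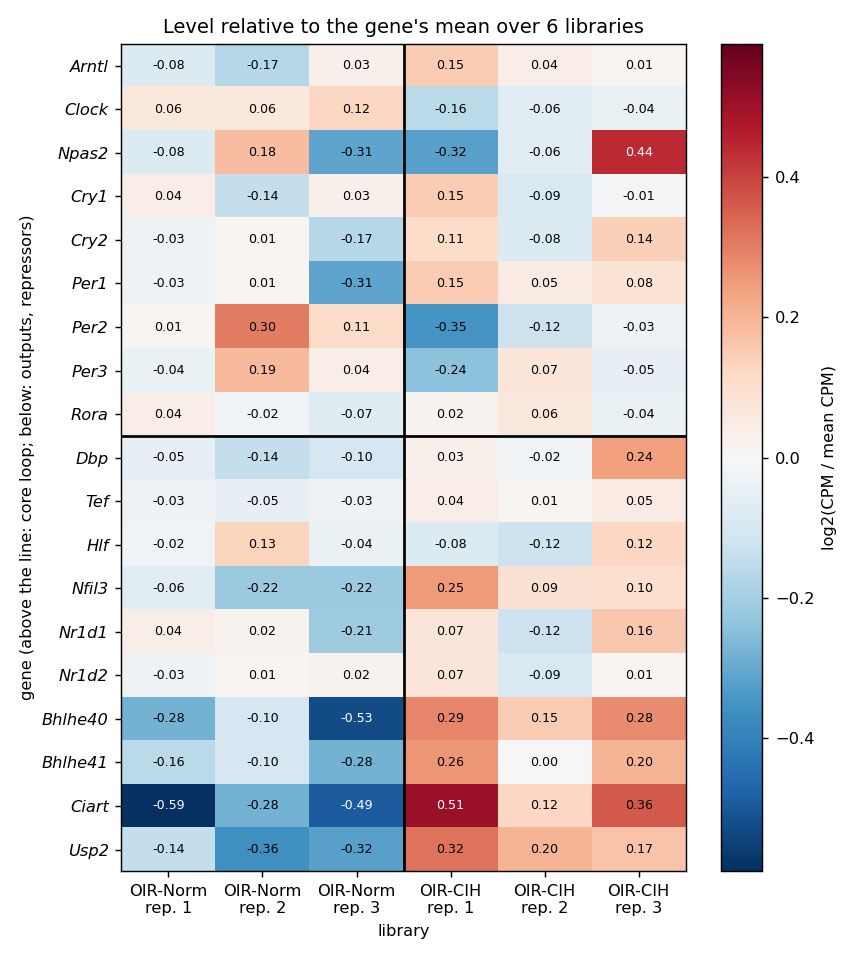
Log2 ratio of each library's CPM to the gene's mean over the 6 libraries, with the core clock genes above the horizontal line and the clock outputs and E-box repressors below it. OIR-CIH replicate 1 holds the extremes for Per2 (-0.35) and Ciart (0.51) on the OIR-CIH side, and Bhlhe40, Ciart and Usp2 are below their mean in all 3 OIR-Norm libraries and above it in all 3 OIR-CIH libraries.

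The genes that the loop controls were read from a list of 10, the D-box factors Dbp, Tef, Hlf and Nfil3, the ARNTL repressors Nr1d1 and Nr1d2, the E-box repressors Bhlhe40, Bhlhe41 and Ciart, and the clock-controlled ubiquitin protease gene Usp2. Of these, 3 of 10 had an adjusted p under 0.05 and all 3 rose, against 0.39% of all genes tested, and the median log2 fold change was 0.25, with 8 higher and 2 lower. With edgeR, 6 of 10 (60%, against 13.2% of all genes) had an unadjusted p under 0.05, all higher. The groups did not overlap for 7 of 10, against 18.4% of all genes. The list was written with earlier results of these libraries known, so its direction is not independent evidence.

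Ciart, which encodes a repressor bound to the ARNTL and CLOCK complex, rose from 12.3, 15.3 and 13.2 CPM in OIR-Norm to 26.5, 20.1 and 23.8 CPM in OIR-CIH. The groups did not overlap, with a log2 fold change of 0.79 (SE 0.12, edgeR adjusted p = 0.0139), or 1.73-fold. Bhlhe40 (DEC1), which competes for E-boxes and also responds to hypoxia, rose from 55.3, 62.7 and 46.5 to 81.9, 74.7 and 81.5 CPM, a log2 fold change of 0.53 (SE 0.10, edgeR adjusted p = 0.0361). Usp2 rose from 109, 94.3 and 96.6 to 150, 138 and 135 CPM, a log2 fold change of 0.50 (SE 0.08, edgeR adjusted p = 0.0147) that fell just short of the limit on fold change. With 1 library left out, which leaves 2 in a group, the log2 fold changes stayed between 0.69 and 0.89 for Ciart, 0.43 and 0.64 for Bhlhe40 and 0.45 and 0.56 for Usp2. Ciart then had an edgeR adjusted p under 0.05 in 3, Usp2 in 4 and Bhlhe40 in 1 of the 6 fits. Without OIR-CIH replicate 1 none of the 3 did, with log2 fold changes of 0.69, 0.51 and 0.45 for Ciart, Bhlhe40 and Usp2 and edgeR adjusted p of 0.115, 0.217 and 0.0971.

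The other outputs did not pass. Bhlhe41 (DEC2), the close relative of Bhlhe40, had a log2 fold change of 0.34 (SE 0.08, edgeR adjusted p = 0.149), and Nfil3, the D-box repressor, one of 0.32 (SE 0.09, edgeR adjusted p = 0.223). Dbp, an output read directly from E-boxes, stood at 0.18 (edgeR adjusted p = 0.364). Bhlhe41, Nfil3 and Dbp each had groups that did not overlap. Nr1d1 (0.09) and Tef (0.07) were nearer to 0. The groups of Tef were also apart, at 261 to 267 CPM in OIR-CIH and 250 to 253 CPM in OIR-Norm. Nr1d2 had a fold of 0.997 and Hlf one of 0.969. Whether the outputs differed from the core genes as a group was not tested.

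**Figure D4:**
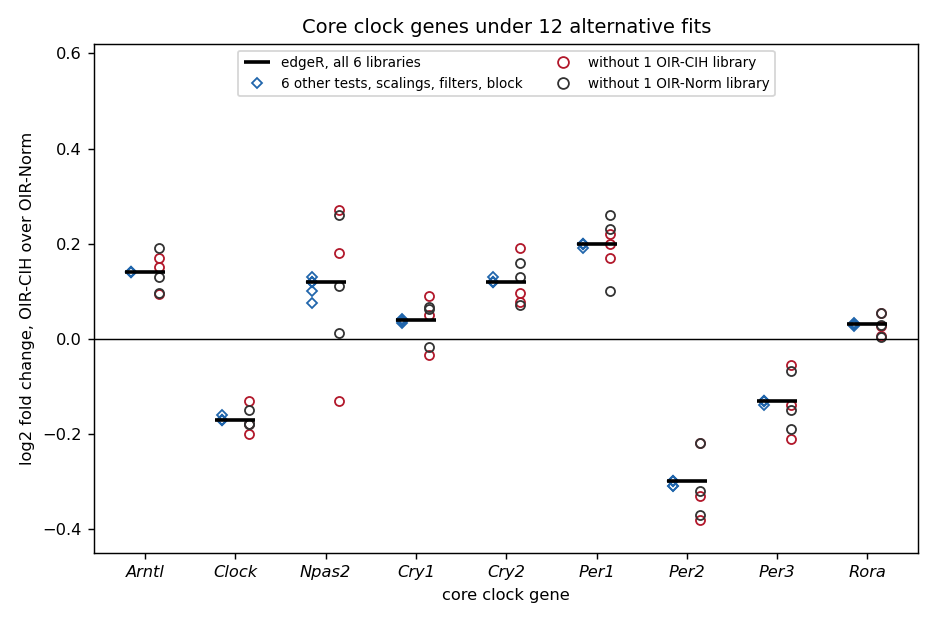
Log2 fold change of each core clock gene in the edgeR fit of all 6 libraries (bar), under 6 other tests, scalings, filters or a replicate block (diamonds), and after leaving out 1 library (circles). Leaving out a library moves the values more than the other tests, scalings and filters do, and places Npas2 between -0.13 and 0.27.

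Other clock genes outside the loop did not pass either. Of 7 paralogs and partners of the core proteins, 0 had an adjusted p under 0.05 with edgeR, DESeq2 or limma, 2 (28.6%, against 13.2% of all genes) had an unadjusted p under 0.05 with edgeR, and the median log2 fold change was -0.03. By p the first were Tipin, the partner of TIMELESS, at 0.26 (edgeR adjusted p = 0.326), and Rorb, the retinal relative of Rora, at -0.21 (edgeR adjusted p = 0.327). Rorb was at 295, 265 and 244 CPM in OIR-CIH and at 309, 313 and 309 CPM in OIR-Norm, so its groups were apart. The RNA helicase gene Ddx5 (0.20), the Arntl paralog Arntl2 (-0.42, SE 0.23) and Nono (0.05) followed.

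Of 12 genes for enzymes that modify or degrade clock proteins, 0 had an adjusted p under 0.05 with edgeR, DESeq2 or limma, 2 (16.7%, against 13.2% of all genes) had an unadjusted p under 0.05 with edgeR, and the median log2 fold change was 0.03. Prkaa1, a catalytic subunit of AMP-activated kinase, which marks cryptochromes for degradation, had the lowest p, with a log2 fold change of -0.23 (SE 0.08, edgeR adjusted p = 0.270). Csnk1e, the casein kinase that phosphorylates period proteins, was at 0.16 (SE 0.07, edgeR adjusted p = 0.359). Csnk1a1 (0.11), the ubiquitin ligase gene Btrc (-0.11) and its relative Fbxw11 (0.08) came next by p.

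Lists of genes that respond to stimuli known to reach the clock were read beside the members. Of 10 immediate-early genes, 8 leaned down and 2 up, with a median log2 fold change of -0.31. Only Nr4a1, an orphan nuclear receptor gene, passed among them (1 of 10, against 0.39% of all genes). It fell by 0.60 on the log2 scale (edgeR adjusted p = 0.0211), with 42.2 to 46.1 CPM in OIR-CIH and 55.8 to 74.8 CPM in OIR-Norm. With edgeR, 5 of the 10 (50%, against 13.2% of all genes) had an unadjusted p under 0.05, 2 higher and 3 lower. The groups were apart for 3 of the 10, in both directions, against 18.4% of all genes. Summed over the 10, OIR-Norm replicates 1 and 2 were at 407 and 374 CPM. OIR-Norm replicate 3 was at 277 CPM, below the 284 to 319 CPM of OIR-CIH. Of 8 glucocorticoid-responsive genes, 5 leaned up and 3 down with a median of 0.05, and 0 passed with edgeR, where 2 (25%, against 13.2% of all genes) had an unadjusted p under 0.05, while DESeq2 passed 1, the zinc finger factor gene Klf9. Of 12 hypoxia response genes, 10 leaned up, with a median of 0.20. An unadjusted p under 0.05 with edgeR was found for 4 (33.3%, against 13.2% of all genes), all higher. Of the 12, 1 passed with edgeR (against 0.39% of all genes). It was Ankrd37, a target of hypoxia-inducible factor, which rose by 0.67 on the log2 scale (edgeR adjusted p = 0.00508). DESeq2 passed 3 of the 12, Ankrd37, Ddit4 and Ndrg1. Summed levels did not overlap between OIR-CIH and OIR-Norm for the glucocorticoid list (518 to 575 and 446 to 504 CPM). Most of that sum was Klf9, with means of 345 and 277 CPM. Those of the hypoxia list were also apart (2080 to 2333 and 1681 to 1989 CPM), while those of the immediate-early list overlapped (284 to 319 and 277 to 407 CPM). Vegfa, the most abundant gene of the hypoxia list, had means of 570 and 496 CPM and overlapping groups. Taken singly, 5 of the 12 hypoxia genes had groups apart, against 18.4% of all genes. The part of these lists in the levels of the clock genes was not tested.

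In the 10 cell type marker lists, 0 of 64 markers had an adjusted p under 0.05 in the edgeR fit and 18 (28.1%) had an unadjusted p under 0.05, against 13.2% of all genes tested, while DESeq2 passed 3 (Rlbp1, Cx3cr1 and Aqp4). The summed level of 8 microglial markers was 86.1 to 100 CPM in OIR-CIH and 103 to 121 CPM in OIR-Norm and did not overlap between the groups, with a median log2 fold change of -0.27. Summed rod markers were at 53056 to 61327 CPM in OIR-CIH and 46649 to 60893 CPM in OIR-Norm, and the groups overlapped. The 6 pigment epithelium markers summed to 259 to 383 and 168 to 331 CPM, but 4 of them had an unadjusted p under 0.05, with Ttr at 1.68-fold, Lrat at 1.75-fold and Rpe65 at 1.57-fold on the higher side and the pigment gene Pmel at 0.583-fold on the lower side. The groups did not overlap for Ttr and Lrat. All 6 endothelial markers leaned down, with a median log2 fold change of -0.35, but the groups overlapped for each of them. OIR-Norm replicate 2 was the highest library for all 6 except Kdr. OIR-Norm replicate 3 was the lowest for Pecam1, Cdh5, Cldn5 and Tie1. Pecam1, for instance, was at 24.4 and 8.32 CPM in these libraries, against 12.3 CPM in OIR-Norm replicate 1 and 9.38 to 12.5 CPM in OIR-CIH. The summed endothelial level of 257 to 292 and 262 to 333 CPM consisted mostly of Kdr, at 0.995-fold. All 7 amacrine and horizontal cell markers leaned up, with a median of 0.19, and the groups were apart for 1 of them. OIR-CIH replicate 3 was the highest library for all of them except Calb2. Tfap2b, for instance, was at 230 CPM there, against 175 and 177 CPM in the other OIR-CIH libraries and 162 to 177 CPM in OIR-Norm. For the remaining lists the summed levels overlapped between the groups. The part of such differences in cell content in the values of Clock, Per1, Per2 and the outputs was not tested.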

How the data were processed

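Retinal poly(A) RNA of 3 OIR-CIH and 3 OIR-Norm libraries, prepared from 250 ng of total RNA with a stranded kit, was sequenced. The authors aligned reads with STAR 2.7.9a (submitters' processing notes, which also name GRCm38 and DESeq) and deposited raw counts per gene, without normalization. The strand column kept is not given in the sources used here. Which build the counts rest on is uncertain, so no coordinates are given for them. Symbols and exon lengths came from GENCODE M21 (32158 of 32285 identifiers matched).

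Library sizes were corrected with TMM factors and counts tested with edgeR 4.0.16 in R 4.3.3, as tested on simulated data. Precision depends on the counts of a gene and on the spread between libraries. An exact permutation test of 3 against 3 cannot go below p = 0.1. Nothing says that libraries are separate animals, so p-values measure the spread between libraries. Replicates of each group differed beyond sampling noise. Alternatives were DESeq2 1.42.0, limma 3.58.1 on log2(CPM + 0.5), median-of-ratios scaling, other filters, a replicate block and leaving out each library. Members and lists were chosen with earlier results of these data known. Named are all members, listed genes with an adjusted p under 0.05 and the next 5 by p of each clock list. Hlf, Nr1d2, Klf9, Ddit4, Ndrg1, Vegfa and the cell type markers named lie outside this rule and were named after their values were seen.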

Additional observations from a re-analysis of the deposited data

How the results depend on the processing

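No core loop gene had an adjusted p under 0.05 under any of the 12 alternatives, where the lowest was 0.22 (Per2, every gene with at least 1 count). The sign of 7 of 9 members held in all 12. Npas2 ranged from -0.13 (without OIR-CIH replicate 3) to 0.27, and Cry1 from -0.034 (without OIR-CIH replicate 1) to 0.091, with -0.017 when OIR-Norm replicate 2 was left out. Genes called in all numbered 135 with DESeq2 and 213 with every gene of at least 1 count, against 63, and between 35 (without OIR-CIH replicate 1) and 104 (without OIR-Norm replicate 3) when a library was left out. The cause was not tested. The clock outputs that passed numbered 0 to 2 when a library was left out (0 without OIR-CIH replicate 1, and 1 when either OIR-CIH replicate 3 or OIR-Norm replicate 1 was dropped), and 4 with DESeq2 or with every gene of at least 1 count, which add Bhlhe41. Their log2 fold changes without a library stayed at 0.69 to 0.89 (Ciart), 0.43 to 0.64 (Bhlhe40) and 0.45 to 0.56 (Usp2).

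Replicate numbers showed no uniform pairing of the libraries. Deviations of same-numbered libraries from their group means correlated at 0.162, 0.143 and -0.238 over 14800 genes. OIR-CIH replicate 1 correlated best with its own number, and OIR-CIH replicates 2 and 3 with another number (0.201 and 0.224). With 3 libraries per group these correlations constrain one another, so they do not settle whether same-numbered libraries belong together. The fit with the replicate block called 84 genes, and again 0 core loop genes and the same 3 outputs passed. It added Ddit4 to the hypoxia genes that passed and 4 of 64 cell type markers, Lrat, Rpe65, Crygs and Ttr, and changed no call in the other clock, immediate-early and glucocorticoid lists. Depth limits Npas2 most, at 65 to 163 counts per library.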
